A study of Mus musculus with 9 samples.

Results

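The 6 mouse distal-less homeobox genes Dlx1, Dlx2, Dlx3, Dlx4, Dlx5 and Dlx6 were described across TWIST1 ChIP-seq peak lists from embryoid bodies, which are balls of differentiating embryonic stem cells. They are 6 of 21887 protein-coding genes, and a peak was given to a gene when its summit lay inside the gene or, outside genes, when that gene was the nearest within 100 kb. The treated cells were Twist1-OE, A2loxcre embryonic stem cells that lack endogenous Twist1 (Twist1-/-) and carry a doxycycline-inducible Flag-Twist1 cassette. They were set against Twist1-KO, Twist1-/- cells without the cassette, given the same doxycycline. Both were labelled C57BL/6, were differentiated towards neuroepithelium for 3 days with doxycycline for the 16 h before collection, and were immunoprecipitated with the same TWIST1 antibody. Peak lists came from 4 Twist1-OE libraries, 2 Twist1-KO libraries and 1 Twist1-KO input, which is chromatin sequenced without antibody. The 2 Twist1-OE inputs of the series were not analysed here. The groups therefore differ in the presence of induced, tagged TWIST1 on a shared Twist1-/- background, and endogenous TWIST1 was in neither. Peak lists hold no expression values, so neither cell-type markers nor Dlx transcripts could be examined, and the embryoid-body label could not be checked.

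TWIST1 is a basic helix-loop-helix transcription factor that pairs with E proteins and binds short DNA letters called E-boxes, CANNTG. It is known for its part in mesoderm and in cranial neural crest. DLX proteins are homeodomain transcription factors whose genes lie in pairs that point at each other, so that the outer end of each pair member is its 5′ end and the inner ends face a shared gap that in the mouse holds enhancers. Dlx1 and Dlx2 are known for the making and migration of forebrain inhibitory neurons and for upper-jaw patterning. Dlx5 and Dlx6 are known for lower-jaw identity, the inner ear and bone, and Dlx3 for placenta, epidermis and teeth. The role of Dlx4 is less well described.

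The promoters of Dlx1 and Dlx2, the 2 Dlx genes with an entry in the promoter table used here, are shown with the TWIST1 peaks of Twist1-OE libraries 2 and 3 that overlapped both. Each runs from 250 bases before to 50 bases after the start site, 5′ to 3′ on the gene's own strand, from RefSeq GRCm38.p6. Every E-box match is in capitals. Dlx1 lies at chr2:71529195-71529494 on the plus strand and Dlx2 at chr2:71546705-71547004 on the minus strand, in mm10 coordinates.
Dlx1 promoter: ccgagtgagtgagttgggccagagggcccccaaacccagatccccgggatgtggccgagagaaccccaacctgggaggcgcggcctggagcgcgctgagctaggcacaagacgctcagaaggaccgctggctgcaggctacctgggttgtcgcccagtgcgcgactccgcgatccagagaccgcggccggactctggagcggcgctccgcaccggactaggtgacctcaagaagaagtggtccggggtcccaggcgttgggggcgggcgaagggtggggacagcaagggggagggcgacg
Dlx2 promoter: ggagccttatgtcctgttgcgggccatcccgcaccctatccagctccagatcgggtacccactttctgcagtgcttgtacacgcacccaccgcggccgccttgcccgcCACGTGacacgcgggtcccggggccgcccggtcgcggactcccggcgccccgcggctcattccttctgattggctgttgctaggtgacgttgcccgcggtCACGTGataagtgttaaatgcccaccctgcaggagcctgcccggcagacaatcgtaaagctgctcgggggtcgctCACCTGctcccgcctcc
The Dlx1 sequence holds no E-box, and 27.7% of 32851 RefSeq promoters hold none. The Dlx2 sequence holds 3 E-boxes, and 17.6% of all promoters hold 3 or more. Counted from the start site, CACGTG begins at -142 and again at -42, and CACCTG begins at 34. Of all promoters, 7.15% hold CACGTG and 20.2% hold CACCTG, read on both strands. Neither promoter held CATATG, which 3.91% of all promoters hold. The letters CAGATG, held by 17.2%, were absent from both as well, and so was a pair of E-boxes with 5 bases between them, held by 0.767%. These letter matches are a description and were not measured as binding sites. The promoters of Dlx3, Dlx4, Dlx5 and Dlx6 were not used here.

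The libraries differ in depth, which touches every count below. The lists carry no read totals. Depth was taken from the pileup, the number of overlapping extended reads, that the peak caller used as genome background. This background was 1.00 and 1.20 in Twist1-OE libraries 1 and 4, 5.38 and 5.29 in Twist1-OE libraries 2 and 3, and 4.73 and 5.09 in the Twist1-KO libraries. The lists held 22388 peaks for Twist1-OE library 1, 106821 for library 2, 87441 for library 3 and 14160 for library 4. The Twist1-KO lists held 104 and 71 peaks, and the Twist1-KO input list held 1774. At its genome background, the weakest peak that a list could hold there had a fold of 4.00 in Twist1-OE library 1, 2.51 in library 2, 2.54 in library 3 and 4.09 in library 4, against 3.66 and 3.61 in the Twist1-KO libraries. Most values are therefore given per library, for the shallow pair (1 and 4) and the deep pair (2 and 3). Means and SDs over all 4 Twist1-OE libraries mix the pairs, so their spread includes the difference in depth.

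All 6 Dlx genes had TWIST1 peaks in Twist1-OE, and none had a peak in either Twist1-KO list or in the Twist1-KO input. The Twist1-OE libraries 1 to 4 gave the family 6, 54, 46 and 4 peaks, 110 in all and 27.5 ± 26.2 per library (SD, n = 4), against 0 and 0 in Twist1-KO. The deep pair holds 100 of these 110 peaks. A Dlx gene had at least 1 peak in 4, 6, 6 and 3 of 6 cases in libraries 1 to 4, beside 47.2%, 80.6%, 77.5% and 37.4% of all genes. In the Twist1-KO libraries 0.21% and 0.0959% of all genes had a peak, and in the input 5.28%, so most genes were empty there, as the Dlx genes were. The nearest Twist1-KO peak to any Dlx gene lay 3152018 bp from Dlx2. The nearest input peak lay 77182 bp from Dlx4 and was given to no Dlx gene. Of the 110 peaks, 86 had a −log10 p-value at or above 7.48, the lowest value listed in Twist1-KO library 2. In the deep pair 68 of 100 had a fold of at least 3.66, the higher of the 2 limits at the Twist1-KO genome backgrounds. Where local background is higher a lower fold can be listed, and the median listed fold was 3.51 in Twist1-KO library 2 and 2.88 in Twist1-KO library 3.

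Dlx2 had 1, 12, 11 and 1 peaks in Twist1-OE libraries 1 to 4, against 0 and 0 in Twist1-KO. Dlx4 had 2, 12, 7 and 2 peaks in Twist1-OE, against 0 and 0 in Twist1-KO. Dlx6 had 2, 9, 9 and 1 peaks in Twist1-OE, against 0 and 0 in Twist1-KO. For these 3 of the 6 genes every Twist1-OE library lay above every Twist1-KO library, beside 34.9% of all genes. Dlx3, Dlx1 and Dlx5 overlapped Twist1-KO at 0. Dlx3 had 1, 11, 11 and 0 peaks in Twist1-OE, against 0 and 0 in Twist1-KO. Dlx1 had 0, 7, 2 and 0 peaks and Dlx5 had 0, 3, 6 and 0 in Twist1-OE, against 0 and 0 for both in Twist1-KO. So Dlx1 and Dlx5, one member of each of 2 pairs, had peaks in the deep libraries and none in the shallow ones. Over all genes, too, more had a peak in the deep libraries 2 and 3 (80.6% and 77.5%) than in the shallow libraries 1 and 4 (47.2% and 37.4%). The share of all genes with peaks in the deep libraries alone was not counted, so the pattern is not called particular to these genes.

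The difference in mean log2(peak number + 1), Twist1-OE minus Twist1-KO, was 2.47 for Dlx4, with 5.75 ± 4.79 peaks in Twist1-OE (SD, n = 4) and 0 in both Twist1-KO libraries. It was 2.32 for Dlx2, 2.31 for Dlx6, 2.04 for Dlx3, 1.20 for Dlx5 and 1.15 for Dlx1, and the means behind them were 6.25 ± 6.08, 5.25 ± 4.35, 5.75 ± 6.08, 2.25 ± 2.87 and 2.25 ± 3.30 peaks in Twist1-OE, with 0 in Twist1-KO throughout. The two-sided exact permutation test of the 6 libraries gave p = 0.133 for Dlx2, Dlx4 and Dlx6, p = 0.267 for Dlx3 and p = 0.467 for Dlx1 and Dlx5. Adjusted over 21887 genes (Benjamini-Hochberg), the exact test gave 0.382, 0.608 and 0.622 for those 3 groups of genes. The design allows no p below 0.0667, so no gene of the series could pass 0.05, and 0 did, adjusted (0%) or unadjusted. The order Dlx2, Dlx3, Dlx4, Dlx6, Dlx1, Dlx5 by mean peak number has no neighbours that differ by more than their spread, which includes the difference in depth. The labels call the replicates biological without saying what was repeated, so the p-values measure the spread between these libraries.

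**Figure D1:**
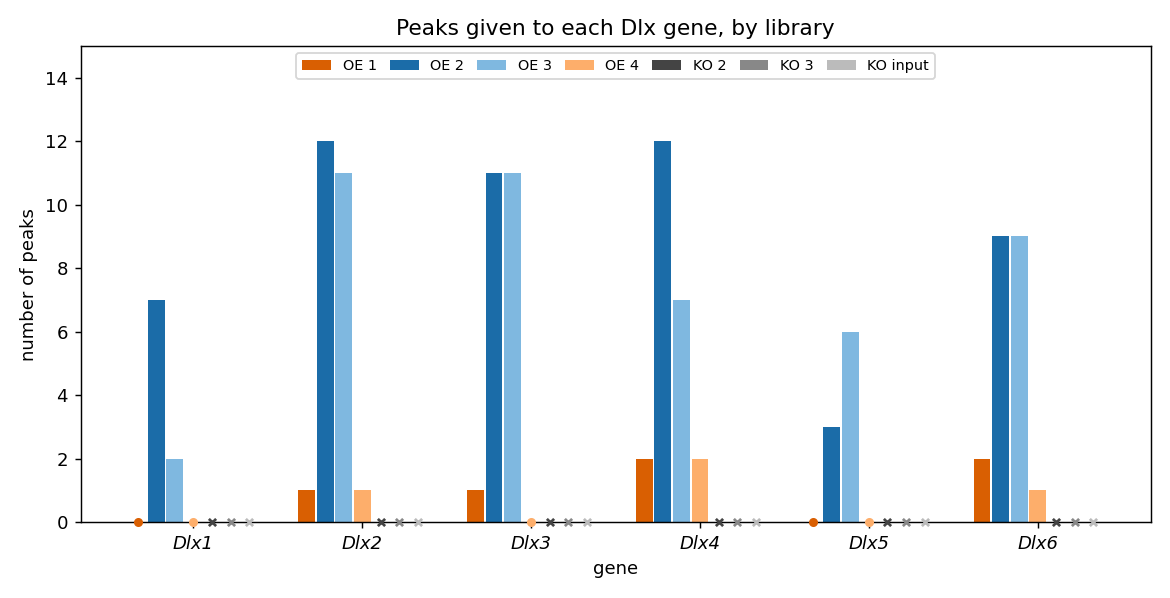
Number of peaks (y axis) given to each Dlx gene (x axis) in the 4 Twist1-OE libraries (OE), the 2 Twist1-KO libraries (KO) and the Twist1-KO input. Each bar is 1 library and a mark on the axis is 0. Libraries OE 2 and OE 3 reach 12 and 11 peaks, libraries OE 1 and OE 4 never exceed 2, and every Twist1-KO and input value is 0.

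Over the 110 Dlx peaks, 23 summits lay within 1 kb of a gene end, 20 deeper in a gene body, 15 in the gap between the genes of a pair and 52 outside. Inside a Dlx gene lay 34 of the 110 (30.9%), and 52.2% of all 230521 Twist1-OE peaks lay inside a protein-coding gene, with no adjustment for gene length. The Dlx1–Dlx2 gap of 9426 bp held 0, 4, 3 and 0 summits in Twist1-OE libraries 1 to 4. The Dlx3–Dlx4 gap of 15150 bp held 0, 4, 2 and 0, and the Dlx6–Dlx5 gap of 9830 bp held 1, 2, 2 and 0. All 3 gaps held 0 in both Twist1-KO libraries and in the input. The summits in the gaps thus came from the deep libraries, apart from 1 summit of library 1 between Dlx6 and Dlx5.

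**Figure D2:**
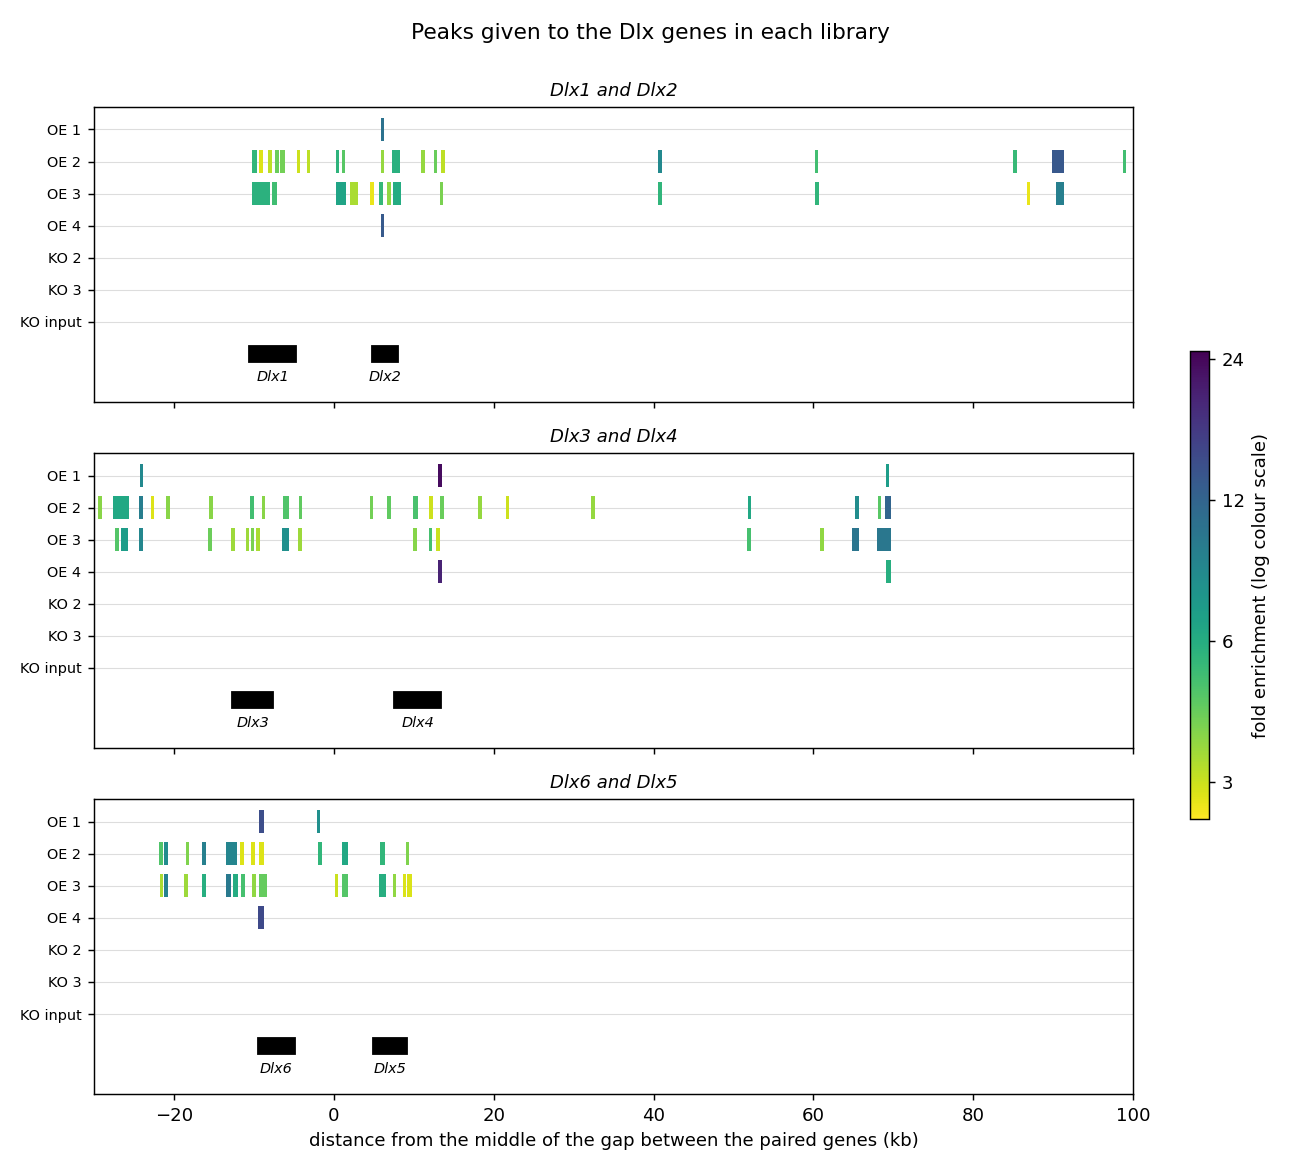
Peaks given to the Dlx genes in each library, with distance from the middle of the gap between the paired genes on the x axis (kb) and 1 row per library, Twist1-OE (OE) above Twist1-KO (KO) and the Twist1-KO input. Bars are peaks, widened to at least 0.45 kb so that they can be seen and coloured by fold enrichment on a log scale, and black boxes are the genes. Columns of peaks shared by OE 2 and OE 3 run along all 3 loci, few are shared with OE 1 and OE 4, and the Twist1-KO and input rows are empty.

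Peaks of the Twist1-OE libraries that overlapped by at least 1 bp were merged into regions. The Dlx genes took 62 regions of 119237 in the series. Of these 62, 28 had a peak in 1 library, 29 in 2 libraries, 2 in 3 libraries and 3 in all 4 (4.84%), beside 9.19% in all 4 over the series. Among the 29 with 2 libraries, 28 joined libraries 2 and 3. Reproducible regions were those with a peak of all 4 Twist1-OE libraries and of no Twist1-KO or input list. Dlx2, Dlx4 and Dlx6 had 1 such region each, 1 gene of each pair and 3 of 6 genes (50%), beside 30.3% of all genes. No other gene took a reproducible region within 100 kb of a Dlx gene. These 3 of 6 and that background share were not tested against each other. The count was 0 of 6 when only peaks with −log10 q of at least 10 were used, when summits had to lie within 100 bp and when lists were cut to equal length, beside 21.7%, 19.4% and 15.7% of all genes. Asking for only 3 of 4 libraries gave 4 of 6 Dlx genes beside 43.1% of all genes, and asking for 2 of 4 gave 6 of 6 beside 74.9%. Dlx4 had 1.41 reproducible regions per 100 kb of the sequence nearest to it, Dlx2 0.926, Dlx6 0.913 and Dlx1, Dlx3 and Dlx5 0. The 6 genes together had 3 regions in 381500 bp. Over all genes there were 0.497 per 100 kb, which includes genes with no region, so it is no yardstick for the 3 genes with one. Of the 6 genes, Dlx6 and Dlx2 own long stretches (109500 and 108000 bp), Dlx1 only 12000 bp and the median gene 46000 bp, so the genes had unequal room in which to take a region.

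The Dlx2 region lay inside the gene, at chr2:71544392-71544995, 1282 bp from the nearer gene end. Its folds were 10.5, 3.60, 5.40 and 13.2 in Twist1-OE libraries 1 to 4, a mean of 8.16 ± 4.43 (SD, n = 4), with no peak in Twist1-KO. The fold of 3.60 in library 2 is just under the limits of 3.66 and 3.61 at the Twist1-KO genome backgrounds. The summits of the 4 libraries fell within 135 bp. Fold here is the authors' fold enrichment of pileup over local background, with 1 read added to each. The added read lowers folds more at the low backgrounds of libraries 1 and 4 than in libraries 2 and 3. The rank of a fold within a list is given as a percentile, where 100% would be the strongest peak. The Dlx2 region ranked at 55.9%, 18.7%, 53.1% and 66.7%, so it was of middling strength in 3 lists and weak in library 2.

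The Dlx6 region lay at the outer, 5′ end of the gene, at chr6:6863445-6864483, its position 440 bp inside the gene. Its folds were 14.5, 2.82, 4.29 and 15.0 in Twist1-OE libraries 1 to 4, a mean of 9.14 ± 6.48 (SD, n = 4), with no peak in Twist1-KO. The fold of 2.82 in library 2 is under the limits of 3.66 and 3.61 at the Twist1-KO genome backgrounds. A signal of that size could have gone unlisted in Twist1-KO. The summits spread over 289 bp. It ranked at 70.2%, 2.20%, 33.6% and 72.8%, high in the shallow libraries and near the bottom of the list of library 2. The short non-coding gene Dlx6os2, 1354 bp long and inside Dlx6, held the summits of libraries 1 and 3 there.

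The Dlx4 region lay outside genes, at chr11:95200846-95202631, 55806 bp beyond Dlx4 and 59429 bp from Tac4, a tachykinin precursor gene on its other side. Its assignment to Dlx4 thus rests on a small difference in distance. Its folds were 6.99, 11.9, 10.0 and 5.90 in Twist1-OE libraries 1 to 4, a mean of 8.70 ± 2.76 (SD, n = 4), with no peak in Twist1-KO, and its summits fell within 158 bp. It ranked at 30.1%, 86.2%, 81.5% and 15.4%, high in the deep libraries and low in the shallow ones, the reverse of the Dlx6 region.

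A further 2 regions had a peak in 3 of 4 Twist1-OE libraries. At the outer, 5′ end of Dlx4, chr11:95145949-95146506, folds were 23.5 in library 1, 4.23 in library 2 and 20.0 in library 4, a mean of 15.9 ± 10.2 (SD, n = 3), with no peak in Twist1-KO. These are the strongest Dlx peaks of libraries 1 and 4. Library 3 had a peak with a fold of 3.02 whose edge stopped 4 bases short of the region, with its summit 449 bp away, so the Dlx4 end was not counted as reproducible. Beside Dlx3, chr11:95108455-95109054, 11346 bp beyond the gene's outer end, folds were 8.48, 9.40 and 8.58 in libraries 1 to 3, a mean of 8.82 ± 0.505 (SD, n = 3), with no peak in library 4 or in Twist1-KO. Its 3 summits fell within 23 bp, the tightest of the 5 regions. The fold of 8.48 in library 1 stood on a summit pileup of 16 reads, and in library 4 a peak with a fold of 4.09 could still be listed at its background.

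The shared regions held different ranks in the shallow and deep lists. A percentile depends on the length of its list, and the deep lists hold many more weak peaks, so a difference in rank does not show a change in the region itself. At the 5′ end of Dlx6 the mean percentile was 71.5% in the shallow pair and 17.9% in the deep pair. At the 5′ end of Dlx4 it was 84.1% in the shallow pair and 34.2% in library 2, the 1 deep library with a peak there. Inside Dlx2 it was 61.3% in the shallow pair and 35.9% in the deep pair. At the outside region of Dlx4 it was 22.7% in the shallow pair and 83.9% in the deep pair. At that of Dlx3 it was 43.7% in library 1, the 1 shallow library with a peak there, and 78.6% in the deep pair. Over all 10375 reproducible regions, the difference of shallow minus deep had a median of 6.82 percentage points at gene ends, -24.1 inside genes and -30.1 outside. The Dlx6 end (a difference of 53.6 points) and the outside Dlx4 region (-61.1 points) had the direction of their class and lay beyond its quartiles, which were -17.0 and 27.6 at gene ends and -49.6 and -10.9 outside. The region inside Dlx2 went the other way from most of its class, of which 17.8% ranked higher in the shallow pair. With a gene-end window of 5 kb in place of 1 kb, this region counts as a gene end and is no region inside a gene. The pairs of libraries were formed here by their background, are not groups of the study, and no test was made between them.

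**Figure D3:**
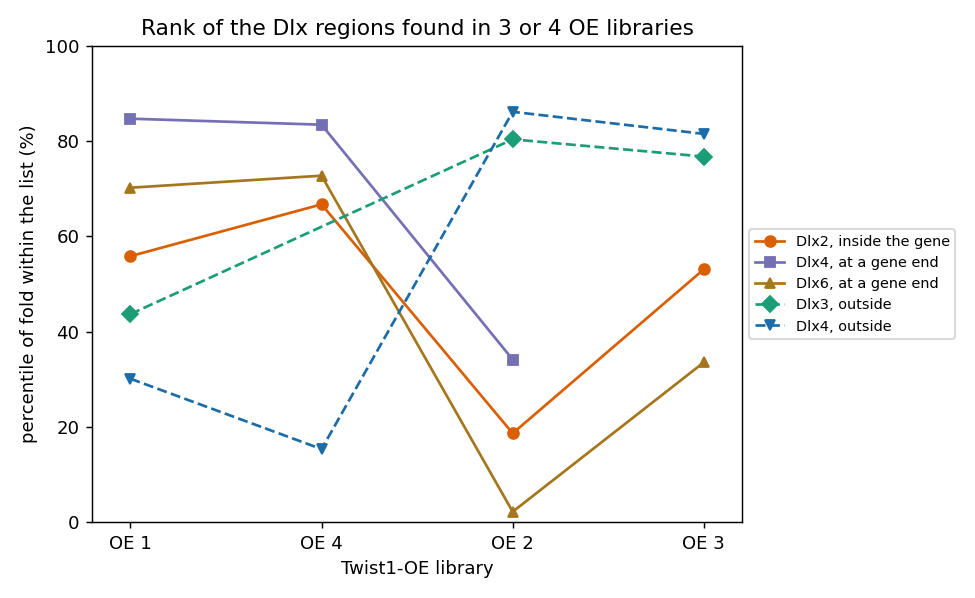
Percentile of fold within its own list (y axis) of the 5 Dlx regions found in at least 3 Twist1-OE libraries (OE, x axis), with the shallow libraries OE 1 and OE 4 left of the deep libraries OE 2 and OE 3. Points are single libraries, a missing point is a library with no peak in the region, and lines only join the points of a region. Solid lines (at or inside genes) stand higher on the left than at OE 2, and dashed lines (outside) stand higher on the right.

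Taken gene by gene, the strongest peak of Dlx4 had folds of 23.5, 11.9, 10.2 and 20.0 in Twist1-OE libraries 1 to 4, a mean of 16.4 ± 6.37 (SD, n = 4), against no listed peak in Twist1-KO. It stood at the gene's 5′ end in the shallow libraries and more than 50 kb outside in the deep ones, 55727 bp away in library 2 and 52074 bp in library 3. The strongest peak of Dlx6 had folds of 14.5, 9.25, 9.85 and 15.0 in Twist1-OE, a mean of 12.1 ± 3.01, against none in Twist1-KO. It too stood at the 5′ end in libraries 1 and 4, and 6776 and 3592 bp outside in libraries 2 and 3. The strongest peak of Dlx2 had folds of 10.5, 13.3, 9.38 and 13.2 in Twist1-OE, a mean of 11.6 ± 1.97, against none in Twist1-KO, and lay inside the gene in libraries 1 and 4 but 82554 and 82970 bp away in libraries 2 and 3. For Dlx3 the folds were 8.48, 9.40 and 8.58 in libraries 1 to 3, all at the 1 outside region described above. The strongest folds of Dlx1 were 5.49 and 5.72 and those of Dlx5 6.27 and 5.88 in libraries 2 and 3. In these 2 deep lists, Dlx1 and Dlx5 ranked at 55.7% to 63.9% and each of the other 4 genes at 76.8% to 88.3%. This split rests partly on distant peaks. With assignment within 10 kb, the folds in libraries 2 and 3 were 5.80 and 6.52 for Dlx2 and 5.02 and 7.95 for Dlx3. For Dlx4 they were 4.86 and 4.93, and those of Dlx1, Dlx5 and Dlx6 did not change. At this distance only Dlx6 stood above both Dlx1 and Dlx5 in both lists. In the series' strongest lists the highest folds were 1699 in both libraries 2 and 3, 896 in library 1 and 576 in library 4, so all Dlx peaks were far from the top.

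**Figure D4:**
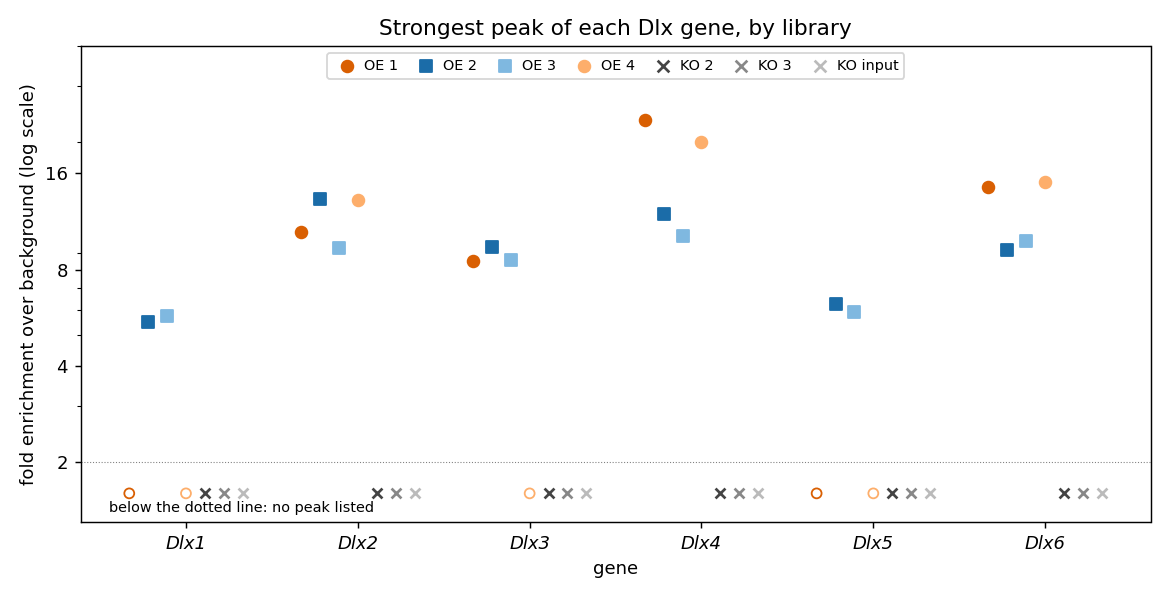
Fold enrichment over local background of the strongest peak (y axis, log scale) of each Dlx gene (x axis) in the Twist1-OE libraries (OE), the Twist1-KO libraries (KO) and the Twist1-KO input. Each point is 1 library, and marks below the dotted line are libraries with no listed peak. Dlx4 stands highest in OE 1 and OE 4 at 23.5 and 20.0, Dlx1 and Dlx5 have points in OE 2 and OE 3 alone, and no Twist1-KO or input library has a value.

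At the promoters printed above, the deep libraries alone had peaks. On Dlx2, the summit of Twist1-OE library 2 lay at 139, past the end of the printed window, with a fold of 5.80. It was 105 bases from the first letter of the nearest printed E-box, and the sequence past the window was not read. The summit of library 3 lay at -119 with a fold of 6.04, 23 bases from the first letter of the CACGTG at -142. Libraries 1 and 4 and both Twist1-KO libraries had no peak at this promoter. On Dlx1, which has no E-box in its window, library 2 had a summit at -20 with a fold of 2.82 and a pileup of 17, near the weakest it could list. A broad peak of library 3 with a fold of 5.72 also covered the window, but its summit lay at -561, and library 2 had a stronger summit at -558 with a fold of 5.49. The strongest signal of both deep libraries at Dlx1 was therefore outside the printed window, with summits 3 bp apart.

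Non-coding genes of the loci took part of the signal. Dlx6os1, also named Evf2, is a long non-coding RNA gene of 51085 bp that spans Dlx6 and is known in mouse brain for acting on the Dlx5/Dlx6 enhancers. It held 2, 9, 9 and 1 of the Dlx summits in Twist1-OE libraries 1 to 4, against 0 and 0 in Twist1-KO. Every peak given to Dlx6 in these 4 lists therefore lay within Dlx6os1 as well, and of these summits 1, 8, 8 and 0 were outside the Dlx6 gene. Dlx1as, antisense to Dlx1, held 0, 4, 1 and 0 summits in Twist1-OE, and Dlx4os held 1, 3, 2 and 1, against 0 and 0 in Twist1-KO for both. Peaks have no strand, so a summit where genes overlap cannot be told apart between them.

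Genes that work with the Dlx family were read in 3 lists, beside 30.3% of all genes with a reproducible region. The lists were chosen with earlier results of these data known. Their shares were not tested and not adjusted for the length of sequence nearest to each gene. Of 16 forebrain inhibitory-neuron genes 11 had a region (68.8%), of 20 branchial-arch and jaw genes 13 (65%), and of 16 genes of skeleton, ear, placenta and epidermis 10 (62.5%), each with a median of 1 region per gene, against 0 over all genes. The jaw list includes Twist1 itself, and without it 12 of 19 genes had a region (63.2%). Gbx2, a homeobox gene, is in both the second and the third list. Gad1 and Gad2, which make the transmitter GABA, had no region. Zeb2, a repressor that acts after Dlx1 and Dlx2 in migrating interneurons, had folds of 45.9, 107, 102 and 27.2 in Twist1-OE libraries 1 to 4 at a region inside the gene, a mean of 70.6 ± 40.1 (SD, n = 4). Slc32a1, the vesicular GABA transporter, averaged 27.0 ± 16.0, Isl1, a LIM homeobox gene, 15.8 ± 4.77 and Nrp2, a semaphorin receptor, 44.9 ± 39.5. The regions given lay 15748 bp from Slc32a1, 113 bp from Isl1 and inside Nrp2. Zeb2 had 2 regions and Nrp2 had 5, of which 1 each is given.

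In the jaw list Edn1, the endothelin ligand that switches on Dlx5 and Dlx6 in the lower jaw, and its receptor Ednra had no region. Hand2, a helix-loop-helix gene downstream of Dlx5 and Dlx6, had folds of 20.5, 37.5, 30.0 and 17.7 in Twist1-OE libraries 1 to 4, a mean of 26.4 ± 9.06 (SD, n = 4), at a region 4110 bp outside the gene. Gsc, a homeobox gene of the jaw, averaged 40.4 ± 19.8, Bmp4, a secreted signal, 25.1 ± 13.3, and Mef2c, a transcription factor upstream of Dlx5 and Dlx6, 16.8 ± 13.7. The regions given lay 58976 bp from Gsc, 213 bp from Bmp4 and 64281 bp from Mef2c. Gsc and Hand2 had 3 regions each, of which 1 each is given. In the last list the bone genes Ibsp, Col1a1 and Sp7 averaged 74.9 ± 56.4, 32.9 ± 17.1 and 23.2 ± 10.5, and Tfap2a, a neural crest and epidermis factor, 30.9 ± 21.8. These regions lay 41939 bp from Ibsp, 7198 bp from Col1a1, 10139 bp from Sp7 and 12022 bp from Tfap2a. Col1a1 had 2 regions, of which 1 is given. Bglap, which encodes osteocalcin, and Trp63, an epidermal regulator, had no region. Each named mean is above the 8.16 to 9.14 of the 3 reproducible Dlx regions, but these 12 genes were named because they ranked highest in their lists.

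By the percentiles of its strongest peak, 84.7%, 86.2%, 82.0% and 83.5% in Twist1-OE libraries 1 to 4, Dlx4 had the highest mean percentile among the Dlx genes with a peak in all 4, although Dlx2 ranked above it in library 2, at 88.3%. Among the 7670 genes with such a peak (35% of all), the nearest to it were Pxylp1, Dnajc3 and 3110082I17Rik, with mean absolute differences of 0.88, 0.937 and 1.16 percentage points over the 4 libraries. The peaks behind the Dlx4 values stood at its 5′ end in libraries 1 and 4, and at different sites 55727 and 52074 bp away in libraries 2 and 3. With assignment within 10 kb, its strongest folds in libraries 2 and 3 were 4.86 and 4.93, so its lead rests partly on distant peaks. The comparison is a description of 4 values per gene.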

How the data were processed

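TWIST1 ChIP-seq was deposited as 1 narrowPeak list per library for 7 of 9 libraries. The submitters' processing notes name MACS2, Picard, BWA and Trimmomatic, and the builds mm10 and GRCm38.p5. No version and no control for the caller is stated, and that control can change which peaks are listed. Peaks were called per library. Each deposited peak has a fold enrichment and −log10 p- and q-values from the authors' caller (q at most 0.01). Fold is a ratio of pileup over local background, with 1 read added to each. The deposited score, tied to the q-value, was not used for results. Folds are the peak's own value and describe or rank peaks within a list; side by side they are a description only.

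Peaks on 21 chromosomes were given to RefSeq GRCm38.p6 genes with Python 3.11.15, numpy 2.4.6, pandas 2.3.3 and scipy 1.17.1, with figures by matplotlib 3.10.9. A region inside overlapping genes counted for each. A region's position is the midpoint of its outermost summits, 1 strongest peak per library. Summit pileup and background were recovered from fold and p-value as a whole read number (−log10 p within 0.001). Peak numbers were compared by an exact permutation test over the 15 ways to divide 6 ChIP libraries, with a pseudocount of 1. On simulated lists over 21887 genes, 100% of 400 planted shared regions were found, 1% of 100 with a control peak was kept, and 0 of 300 assignments were wrong. The planted peaks were built to overlap in every Twist1-OE library, so this checks the code and not the share of real shared regions found. Of 6 Dlx genes 2 matched the promoter table. Protein identity and E-boxes at summits were planned and not run, since no protein table or genome was used here. From each related list, the 4 genes with a region that ranked highest by mean percentile and the first 2 without a region are named, with the 3 genes most like the leading Dlx gene. The Dlx genes and the lists were chosen with earlier results of these data known. Alternatives tried were a stricter q-value, overlap, summit distance, libraries required, assignment distance, gene-end window, equal list lengths, pseudocount and leaving out each library.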

Additional observations from a re-analysis of the deposited data

How the results depend on the processing

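Of 198 recomputed values, 177 kept their side of the threshold or stayed within the replicate spread, which includes the difference in depth. None reversed, but none could. The 90 values for peak numbers are among the 177, and Twist1-KO had no Dlx peak in any setting. The other values are counts and folds, which have no direction to turn. Also among the 177 are the differences of Dlx1 and Dlx5 that fell to 0 with libraries 1 and 4 alone. The 3 Dlx genes with 3 reproducible regions remained 3 and 3 when 50% of the shorter peak had to overlap or control peaks were not used. They fell to 0 genes and 0 regions when only peaks with −log10 q of at least 10 were kept, when summits had to lie within 100 bp, and when all lists were shortened to equal length; over all genes these settings left 21.7%, 19.4% and 15.7%. Asking for 3 of 4 Twist1-OE libraries gave 5 regions, 2 of 4 gave 6 genes and 34 regions, and using libraries 2 and 3 alone (a choice made once the data had been seen) gave 6 genes and 32 regions. Assignment within 10 or 50 kb gave 2 regions, losing Dlx4. Leaving out 1 library at a time gave 3 to 4 genes and 3 to 4 regions: Dlx3 joined without Twist1-OE library 4, and Dlx4 gained its 5′ end without library 3. With a gene-end window of 5 kb in place of 1 kb, Dlx regions of any Twist1-OE library at gene ends numbered 39 in place of 13. Those deeper in genes numbered 0 in place of 11 and those between paired genes 0 in place of 9. This was largely fixed by the sizes. The Dlx genes are 3347 to 5869 bp long, so all positions inside them lie within 5 kb of an end. The same holds for the gaps of 9426 and 9830 bp, but not for that of 15150 bp.

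No alternative for peak numbers could turn the direction, since Twist1-KO had no Dlx peak in any setting, and none could pass 0.05 in its exact test. With libraries 1 and 4 alone, Dlx1 and Dlx5 had a difference of 0. With a replicate block on numbers 2 and 3, the log2 difference was 2.29 for Dlx1, 3.64 for Dlx2, 3.58 for Dlx3, 3.35 for Dlx4, 2.40 for Dlx5 and 3.32 for Dlx6, each with an exact sign-flip p = 0.5, the smallest that 2 pairs allow; both blocked Twist1-OE libraries are deep. Whether the numbers mark shared experiments is not stated, and the check of their deviations (r = 0.0044 over 21887 genes) cannot tell, since 46 and 21 genes had a Twist1-KO peak. At their genome backgrounds, the shallow libraries 1 and 4 could not list a peak under a fold of 4.00 and 4.09. Dlx1 and Dlx5 had no listed peak there, and their strongest peaks in libraries 2 and 3 had folds of 5.49 to 6.27. These folds stand on genome backgrounds of 5.38 and 5.29, and the limits on 1.00 and 1.20. Since fold adds 1 read to pileup and to background, the folds cannot be set directly against the limits. Whether depth accounts for the missing peaks was not tested.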
